A study of Mus musculus with 2 samples.

Results

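The 661 replicated H3K27me3 peaks on mouse chromosome 8 are described here, out of 38300 replicated peaks in the genome of MEL cells. They were chosen by position alone, as every peak of the replicated list that lies on chromosome 8. Chromosome 8 in turn was singled out because, among the autosomes, it had the lowest share of its sequence in such peaks. That share is therefore a description and supports nothing. H3K27me3, histone H3 with 3 methyl groups on lysine 27, was profiled by ChIP-seq, the sequencing of DNA bound to precipitated chromatin, in MEL, an immortalised mouse erythroleukaemia cell line that the labels present as an analogue of the human line K562. The series has 1 group of 2 biological replicates, with no treatment, no other genotype and no other condition in the labels, which leave age and health state unknown. Each replicate has its own peak list, called against 1 control alignment that both share. A pooled list was called on the merged alignments. The authors derived the replicated list from the pooled and own lists. All positions are on mm10. The lists hold no reads, so sequencing depth is unknown. Nothing in the sources says that the replicates came from separate cultures, so differences between them may be technical.

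H3K27me3 is laid down by Polycomb repressive complex 2, whose catalytic subunit is EZH2 or EZH1, and is read by forms of Polycomb repressive complex 1. It is known for covering silent developmental genes, often at CpG-rich promoters, and for forming broad low domains over other silent sequence. In red cell precursors it is found over genes of other lineages. Mouse chromosome 8 carries known Polycomb targets in other cell types, such as the Irx homeobox cluster and the Fox genes around Foxf1, beside red cell genes such as Klf1 and Ank1. Gene activity was not measured here, so the identity of the line could not be checked against markers.

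The sequences under the peaks that carry the description are shown for the peaks with the highest −log10 q, for a long cluster, for gene starts and for a CpG-rich peak. Each is a window of 120 bases around the summit that the authors gave, on the plus strand of GRCm38, with every CG pair in capitals because CG density marks many Polycomb targets.
Peak near Zfp330, chr8:82780465-82780584: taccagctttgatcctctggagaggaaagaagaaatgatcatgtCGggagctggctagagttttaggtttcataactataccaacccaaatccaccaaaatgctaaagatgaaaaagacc
Peak near Ccdc130, chr8:84297744-84297863: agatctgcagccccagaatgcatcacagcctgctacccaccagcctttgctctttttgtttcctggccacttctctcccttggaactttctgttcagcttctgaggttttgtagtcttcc
Peak in an intron of Lrrc36, chr8:105431935-105432054: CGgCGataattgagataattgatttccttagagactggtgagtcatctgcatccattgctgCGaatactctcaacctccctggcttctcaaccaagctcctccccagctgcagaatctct
Widest peak, inside Zfhx3, chr8:108702673-108702792: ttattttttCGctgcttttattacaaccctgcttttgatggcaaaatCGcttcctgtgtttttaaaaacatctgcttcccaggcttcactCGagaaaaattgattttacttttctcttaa
Peak between genes near Fa2h, chr8:111401694-111401813: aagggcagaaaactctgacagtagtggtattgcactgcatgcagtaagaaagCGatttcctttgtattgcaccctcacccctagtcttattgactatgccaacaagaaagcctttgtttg
Peak near the start of Nlrc5, chr8:94435327-94435446: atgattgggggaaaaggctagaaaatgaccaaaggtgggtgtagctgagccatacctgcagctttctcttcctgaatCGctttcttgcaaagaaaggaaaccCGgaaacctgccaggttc
Peak before the start of F7, chr8:13025238-13025357: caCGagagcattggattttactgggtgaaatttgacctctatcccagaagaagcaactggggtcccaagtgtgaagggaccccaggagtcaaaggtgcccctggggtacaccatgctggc
CpG-rich peak inside Zfhx3, chr8:108704991-108705110: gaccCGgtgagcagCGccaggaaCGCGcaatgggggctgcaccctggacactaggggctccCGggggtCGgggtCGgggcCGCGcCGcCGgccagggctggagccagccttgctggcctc

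The first of these windows held 1 CG pair and the one near Ccdc130 held 0. The windows in Lrrc36 and under the widest Zfhx3 peak held 3 each. The last window, in the same cluster as the widest Zfhx3 peak, held 11 and was 76.7% G or C. The peak of that last window had a −log10 q of 1.92. These are counts in 120 bases around single summits, and CG content over all the peaks is given further on.

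Chromosome 8 was the most sparsely marked autosome in each mm10 list. Replicated peaks covered 224 kb of its 129401213 bp, or 0.173%. The next in order were chromosome 18 with 0.279% and chromosome 13 with 0.297%, and the other autosomes together had 0.532%. Chromosome 8 had 5.11 peaks per Mb, against 8.88 on chromosome 18 and 9.86 on chromosome 13. Replicate 1's own list covered 0.239% of chromosome 8 and replicate 2's own list 0.361%. In replicate 1 the next autosome was again chromosome 18, at 0.399%, and in replicate 2 it was chromosome 7, at 0.611%. The rank depended on how peaks were called: with replicated peaks of −log10 q 2 or more, chromosome 8 had 0.0319% and was the third from the lowest, and chromosome 13 was lowest at 0.0234%. In the older mm9 list, whose coordinates were not mixed with these, chromosome 8 was also the third from the lowest, at 0.235%, and chromosome 18 was lowest at 0.216%. These are single values per list, and the differences between chromosomes were not tested.

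**Figure D1:**
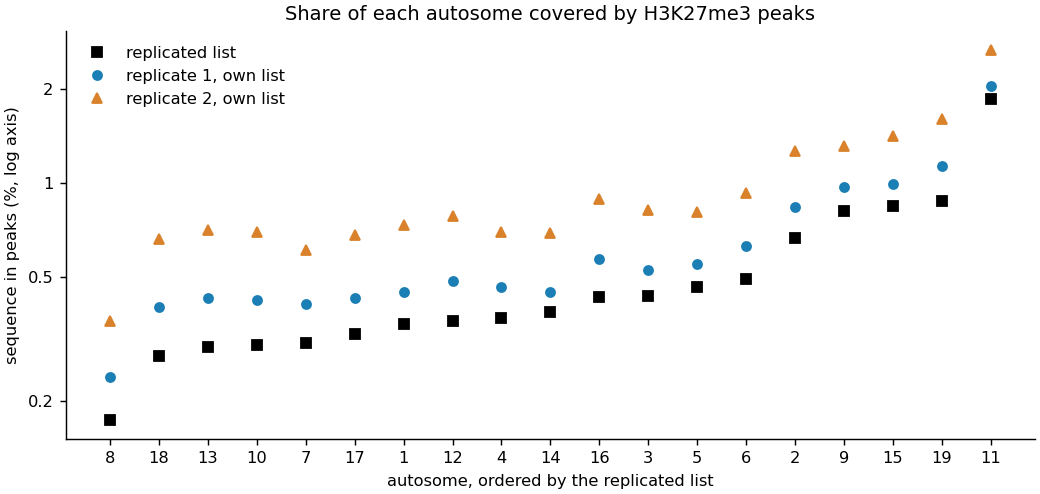
Share of each autosome covered by H3K27me3 peaks (percent, log axis), with autosomes ordered by the replicated list and 1 point per list. Chromosome 8 lies lowest throughout, at 0.173% for replicated peaks, 0.239% for replicate 1 and 0.361% for replicate 2, and chromosome 11 lies highest.

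The peaks that chromosome 8 did carry were about as wide and as strong as those elsewhere. Their width ran from 150 to 2009 bp with a median of 284 bp, against 278 bp over all autosomes, 266 bp on chromosome 18 and 262 bp on chromosome 13. The authors' −log10 p (column 8 of the list) ran from 2.16 to 10.3 with a median of 4.08, against 3.96 over all autosomes and 3.58 on each of chromosomes 18 and 13. Their −log10 q (column 9) ran from 0 to 4.52 with a median of 0.922, against 0.829 over all autosomes and 0.533 on chromosomes 18 and 13. A −log10 q of 2 or more was reached by 76 of the 661 peaks (11.5%), against 10.9% of all replicated peaks. Most were weak by this measure, with 473 below 1. The values came in steps, with 46 different −log10 q values and 83 different −log10 p values among the 661 peaks, so peaks often tied. Chromosome 8 thus held fewer peaks per Mb, and its peaks had median widths and scores at or above those of the autosomes together. Peaks of 1 list are not replicates, and no test was attached.

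Marking was concentrated in a few places. Of 126 bins of 1 Mb with known sequence, 68 (54%) held no replicated peak, and 433 peaks (65.5%) lay in the 10 fullest bins. The share of empty bins was 42% for the median autosome and reached 57.4% on another autosome, so it did not set chromosome 8 apart. The share of peaks in the 10 fullest bins was 51.6% for the median autosome and at most 64.8% on any other, although chromosomes differ in length and number of peaks. All 58 bins with a replicated peak held own peaks of both replicates. The replicated list was made in part from the own lists, so this is no separate support. Of the bins without a replicated peak, 4 held own peaks of replicate 1 alone and 18 of replicate 2 alone. Replicate 1's own list had 0 peaks in 51 of the 68 empty bins and 39 peaks in all of them together, and replicate 2's own list had 0 in 37 of them and 110 peaks in all. Across the 126 bins, Pearson's r between the own peak counts was 0.972 and Spearman's rho was 0.917. Both counts share the control and the sequence of each bin, and no test was attached. Fuller bins also held more genes and more G and C. The 10 fullest bins had a median of 21 protein-coding gene starts and 46.2% GC, and the empty bins a median of 2 gene starts and 40.1% GC, and the part of gene density or base composition in the pattern was not tested.

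**Figure D2:**
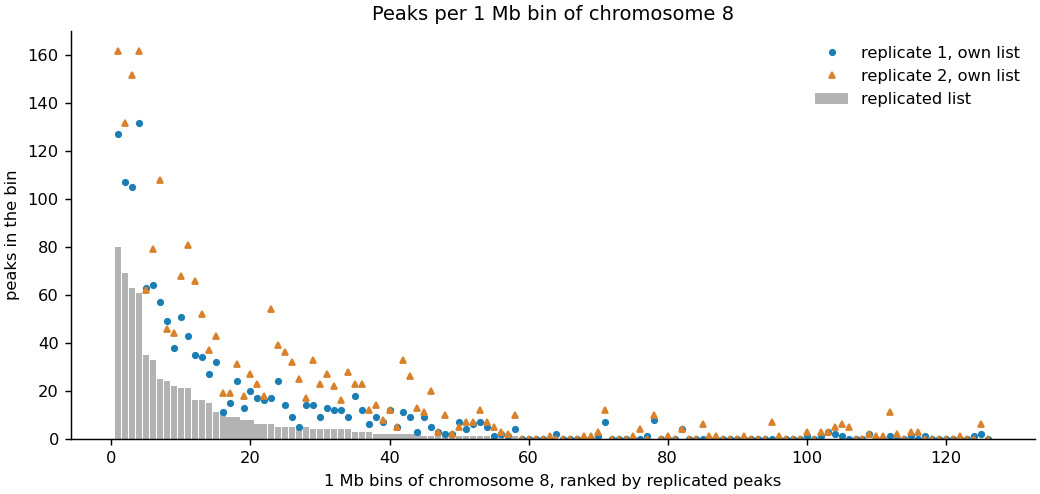
Number of peaks in each 1 Mb bin of chromosome 8, with the 126 bins ranked by the replicated list (bars) and the own lists of both replicates as points. The fullest bin holds 80 replicated peaks, 127 peaks of replicate 1 and 162 of replicate 2, and 68 bins hold 0 replicated peaks.

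Taking bins with 20 or more replicated peaks, a limit set after the counts were seen, 11 Mb in 6 stretches held 454 of the 661 peaks (68.7%). These 11 Mb make up 8.5% of the chromosome. Peaks covered 1.45% of them and 0.0546% of the rest. The bins were picked for their peak counts, so this contrast follows from that choice and supports nothing. The stretch with the most peaks, 3 Mb long, ran from 104 to 107 Mb, with 157 peaks covering 1.92%, and replicates 1 and 2 had 269 and 392 peaks of their own there. It holds part of the carboxylesterase family, the cadherin genes Cdh3 and Cdh1, and the genes Kctd19, Lrrc36 and Smpd3. The stretch from 94 to 96 Mb, 2 Mb long, had 141 peaks and the highest covered share of the 6, 2.42%, with 259 and 324 own peaks, and holds Nlrc5, Slc12a3, Ccl22 and Ndrg4. From 12 to 14 Mb there were 55 peaks, among them 6 in the cluster at F7 and 5 in F10, both coagulation factor genes, and from 83 to 85 Mb there were 42. The bin from 111 to 112 Mb had 35 peaks, near Fa2h, and the bin from 33 to 34 Mb had 24, of which 23 lay in Tex15. All 11 bins were among the 11 fullest in replicate 1's own list, and 9 of them were in replicate 2's. The own lists went into the replicated list, so this overlap of bins is no separate support.

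Between and beyond these stretches lay long intervals without a replicated peak. There were 21 intervals of 2 Mb or more, which together made up 81.0 Mb or 62.6% of the chromosome. No count for other autosomes is set beside these, so they are not shown to be particular to chromosome 8. The longest measured 7.92 Mb (33582916 to 41498767) and held 43 protein-coding genes. Own peaks were not absent from it, with 17 in replicate 1 and 32 in replicate 2. The interval from 112056529 to 117144105, of 5.09 Mb with 18 genes, held 0 peaks of replicate 1 and 1 of replicate 2, and the one from 91138400 to 94100241 held 0 and 7. Sequence without a called peak may still carry the mark.

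When peaks within 3 kb were joined, the 661 peaks formed 280 units: 125 clusters of 2 or more peaks and 155 lone peaks. Lone peaks made up 23.4% of the members, against 19.6% over all autosomes. Lone peaks had a median width of 254 bp and clustered ones 294 bp. Only 6 clusters reached 10 kb, which is 9.08 per 1000 peaks against 13.0 over all autosomes, and these 6 held 18.2% of the covered bases. Of the 125 clusters, 122 held own peaks of both replicates, which is no separate support because the own lists went into the replicated list.

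The longest cluster spanned 28154 bp (105408519 to 105436672) over the neighbouring starts of Kctd19 and Lrrc36, which are read in opposite directions. Kctd19 is needed for meiosis in the testis, and Lrrc36 encodes a protein with leucine-rich repeats. No replicated peak lay within 1 kb of either outermost start, although own peaks did, covering 303 bases in replicate 1 and 324 in replicate 2 at Kctd19, and 303 and 265 at Lrrc36. At Lrrc36 a replicated peak did lie within 1 kb of the start of another annotated transcript. The cluster held 29 peaks that covered 43.4% of it, against 43.2% in replicate 1's own list and 41.7% in replicate 2's. Of these 29 peaks, 11 had a −log10 q of 2 or more, and 25 overlapped own peaks of both replicates. A second cluster of 9344 bp (105395833 to 105405176) lay further inside Kctd19, with 12 peaks. Counted over whole genes, peaks covered 26.9% of Lrrc36 (13574 bases, with 13722 in replicate 1 and 14524 in replicate 2) and 16.9% of Kctd19 (5195 bases, with 5675 and 6667).

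Next in length came 2 clusters without a protein-coding gene in them. One of 19753 bp (111394943 to 111414695) lay 1118 bp from Fa2h, an enzyme that hydroxylates fatty acids of myelin lipids. Its 15 peaks covered 31.7% of it, with 26.7% in replicate 1 and 31.9% in replicate 2. The other, of 17766 bp (94711540 to 94729305), lay 15261 bp from Pllp, which encodes a myelin membrane protein, with 35.1% covered and 23.8% and 37.3% in replicates 1 and 2. A neighbour of the first, of 11359 bp (111419895 to 111431253), lay 17543 bp from Wdr59, a gene of a nutrient-sensing complex, with 39.2% covered, 32.3% in replicate 1 and 35.8% in replicate 2. In each of these clusters replicate 2 had the higher covered share.

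Smpd3, which encodes a neutral sphingomyelinase, was the gene with the most covered bases, 13912 in all. Its own lists gave 14300 bases in replicate 1 and 16157 in replicate 2. Its longest cluster spanned 14019 bp (106312719 to 106326737) and was 49.2% covered, with 37.2% in replicate 1 and 50.7% in replicate 2. Although its body held 32 peaks, no replicated peak lay within 5 kb of its outermost start. Own peaks there covered 187 bases in replicate 1 and 314 in replicate 2. A replicated peak did lie within 1 kb of the start of another annotated Smpd3 transcript. Nlrc5, an activator of MHC class I genes, held a cluster of 10968 bp (94435076 to 94446043) that began near its start, with 43.1% covered and 35.0% and 39.7% in replicates 1 and 2. Tex15, a gene of male germ cells, held 23 peaks and 7455 covered bases, with 9808 in replicate 1 and 9393 in replicate 2, none of them within 5 kb of its start in the replicated list. Its longest cluster spanned 9921 bp (33572995 to 33582915).

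**Figure D3:**
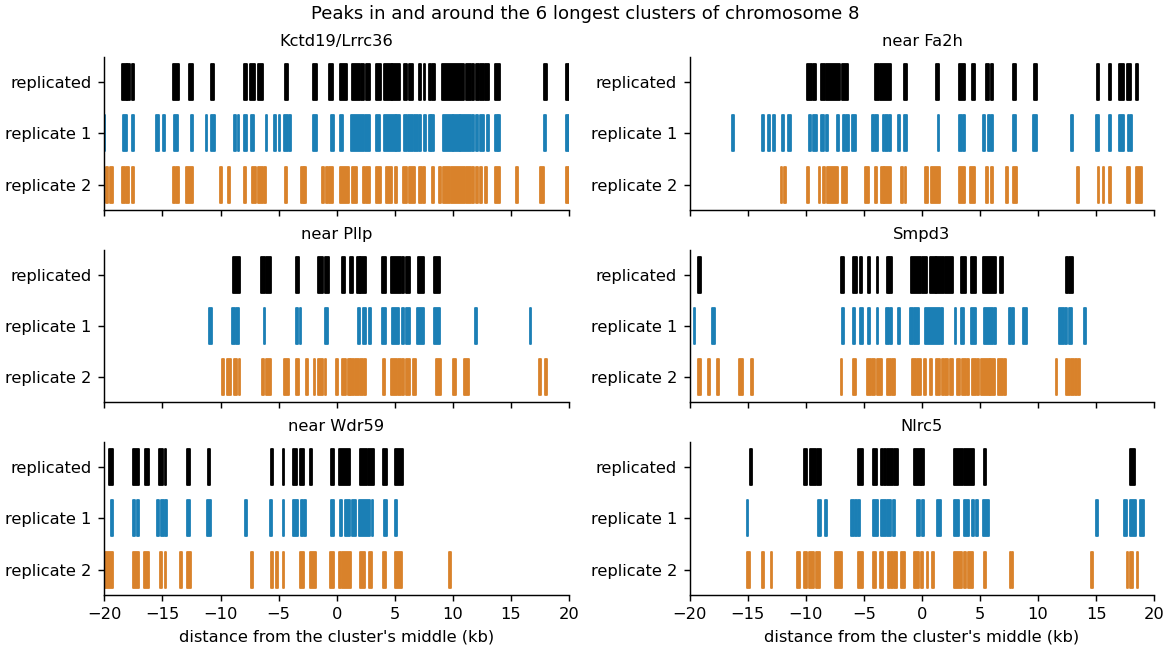
Peaks of the replicated list and of each replicate's own list around the 6 longest clusters, each centred on its middle (distance in kb) and named by the genes in it or the nearest one. Own peaks of both replicates fall in every one of the 6 clusters, and the first holds 29 replicated peaks.

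The highest −log10 q values were not in the longest cluster alone. The highest value, 4.52, was shared by a peak of 377 bp that lay 6224 bp from Zfp330 (82780385 to 82780761) and one of 533 bp between genes near Ccdc130 (84297451 to 84297983). At the first, the own peak of replicate 1 had a −log10 p of 5.86 and that of replicate 2 one of 10.7. At the other the order was turned, with 12.9 in replicate 1 and 7.47 in replicate 2. A peak of 1909 bp in Lrrc36 (105431700 to 105433608) had a −log10 q of 4.04 and was the strongest in both replicates, with a −log10 p of 13.4 in replicate 1 and 11.7 in replicate 2. Counting ties at 3.15, 11 peaks made up the 10 highest values. Beside the 3 above, 3 lay in Lrrc36, 1 in Kctd19, 1 in Zfhx3 and 1 near Fa2h. Of the remaining ones, 1 lay 8371 bp from Tacc1, which encodes a protein of the mitotic spindle, and 1 lay 4930 bp from Cotl1, at the same −log10 q as the Tacc1 and Kctd19 peaks.

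The widest peak of the chromosome, of 2009 bp (108701007 to 108703015), lay inside Zfhx3, a large gene for a zinc finger and homeobox transcription factor. Its −log10 q was 3.83, and own peaks covered 100% of it in replicate 1 and 88.4% in replicate 2. It lay 758363 bp from the outermost start of the gene but 85 bp from the start of another annotated transcript. Zfhx3 held 11 replicated peaks in all, with 5698 covered bases (5360 in replicate 1 and 4963 in replicate 2), and all lay between 108699897 and 108716150. None lay within 5 kb of the outermost start. Counts that use only the outermost start therefore miss this site.

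Few gene starts on chromosome 8 were marked. The chromosome was chosen for its low peak coverage, so low shares of marked genes restate that choice at least in part. Per peak, 4.84% lay within 1 kb of a coding transcript start, against 3.73% over all autosomes. A peak of the replicated list lay within 1 kb of the outermost start for 12 of 1038 protein-coding genes (1.16%), against 3.0% genome-wide. Replicate 1's own list marked 27 of them, where the genome-wide share was 4.46%, and replicate 2's own list 32, where it was 6.28%. Of the 12 genes, 10 were marked in both own lists. Replicate 1 had no own peak within 1 kb of the start of Ces3b, and replicate 2 had none at Slc9a5. Counting the start of any transcript gave 18 genes. Of 549 long non-coding RNA genes, 4 were marked at the start (0.729%), against 2.83% genome-wide: 4933406B17Rik, 9330175E14Rik, Gm10629 and Gm45895.

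Nlrc5 had the most covered bases within 5 kb of its start among the 12, with 3100 bases, 2394 in replicate 1 and 3713 in replicate 2. F7, which encodes coagulation factor VII, had 1508 bases, 1183 in replicate 1 and 2206 in replicate 2, and 840 of these bases lay within 1 kb of the start. Ndrg4, a gene active in heart and brain, had 972 bases, with 1714 in replicate 1 and 1878 in replicate 2. The carboxylesterase genes Ces4a, Ces3b and Ces2a, whose enzymes split esters of drugs and lipids, had 906, 635 and 308 bases. Ces4a was higher in each own list, with 1725 bases in replicate 1 and 1866 in replicate 2. Ces3b differed most between the replicates, with 145 bases in replicate 1 and 1626 in replicate 2. Lzts1, a leucine zipper gene, had 776 bases, with 1455 in replicate 1 and 1309 in replicate 2.

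The other 5 marked genes had between 211 and 521 bases. Slc9a5, a sodium and proton exchanger, had 521 (903 in replicate 1 and 280 in replicate 2). Fbxo25, part of a ubiquitin ligase, had 441 (870 and 587), and its peak had a −log10 q of 2.52. Tmem255b had 440 bases (595 and 327). Cngb1, a subunit of the cation channel of rod photoreceptors, had 260 (508 and 551), and Ccdc102a had 211 (183 and 216). For Cngb1 the 1 kb window held 164 bases in replicate 1 and 551 in replicate 2. With 2 replicates, none of these values has a test.

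**Figure D4:**
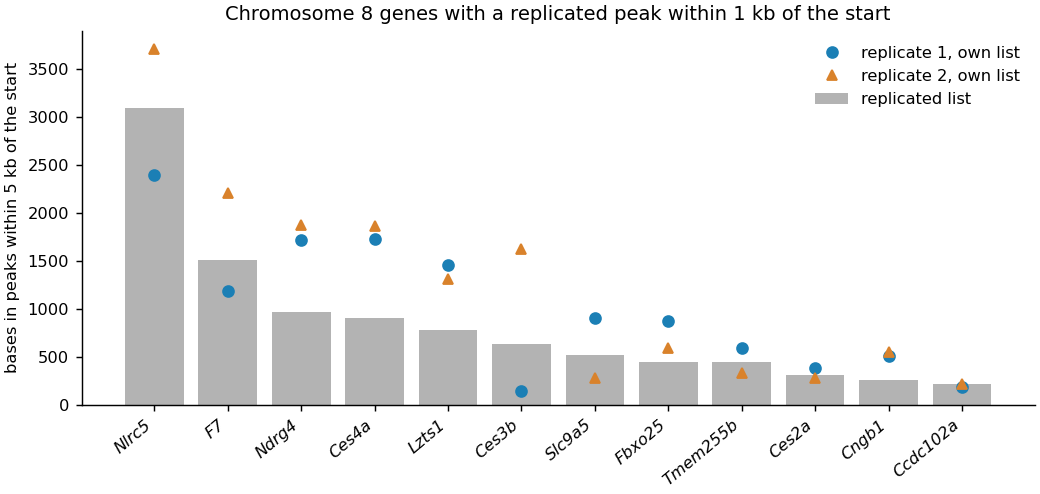
Bases covered by peaks within 5 kb of the start, for the 12 chromosome 8 genes marked at the start, with the replicated list as bars and the own lists of the replicates as points. Nlrc5 is highest in each list (3100, 2394 and 3713 bases), and at Ces3b the replicates lie far apart (145 and 1626 bases).

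Of the 1038 genes, 88 had a replicated peak in the gene or in the 5 kb before it (8.48%), against 15.3% genome-wide. The own list of replicate 1 touched 156 in this way (15%, against 22.3%) and that of replicate 2 touched 197 (19%, against 27.2%). These lower shares, too, restate in part the choice of the chromosome for its low coverage. Red cell genes held peaks at 1 member: of 10 on the list, Ank1, the ankyrin that ties the red cell membrane to its skeleton, was the only one touched. It held 8 peaks, all in introns between 23012061 and 23023582 and at least 37217 bp from the outermost start, with 3002 covered bases, 2795 in replicate 1 and 4383 in replicate 2. Their −log10 q was at most 0.98. The 1 of 10 touched (10%) is near the 8.48% of all genes on the chromosome. Each own list also touched 1 of the 10, against 15% and 19% of all genes on the chromosome. Klf1, a master regulator of red cell genes, and Lyl1, Zfpm1, Prdx2, Cbfa2t3, Piezo1, Hmox1 and Dnase2a had 0 covered bases in the gene in the replicated list and in both own lists. Around Klf1, Prdx2 and Dnase2a, which are neighbours, the 50 kb on each side of the start held 541 covered bases, 775 in replicate 1 and 582 in replicate 2.

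Most developmental transcription factor genes on the list, among them the Polycomb targets named above, had no peak nearby. Of 18 on the list, 1 had a replicated peak in the gene or the 5 kb before it, namely Zfhx3, with 2 of 18 in replicate 1's own list and 3 in replicate 2's. The share of 5.56% in the replicated list is near the 8.48% of all genes on the chromosome, and the own lists touched 15% and 19% of those. None was marked within 1 kb of the outermost start in any of these lists. Within 50 kb of the start 14 of the 18 had no peak in the replicated list or in either own list, where 463 of the 1038 genes (44.6%) had none. These 14 count Zfhx3, whose peaks lie far inside the gene. The others are Irx3, Irx5 and Irx6, the homeobox genes of 1 cluster, Foxf1, Foxc2 and Foxl1, the neural factor Sox1, the heart and limb factor Hand2, the zinc finger genes Sall1 and Zfp42, Maf, Nfix and Tox3. Nkx6-3 had 0 replicated bases within 50 kb (0 in replicate 1 and 202 in replicate 2), and so had Nr2f6 (562 and 280). Klf2, which acts in vessel walls and lymphocytes, had 685 covered bases within 50 kb of its start (912 in replicate 1 and 2072 in replicate 2), and Smad1, a mediator of BMP signals, had 201 (762 and 795). In the replicated list 2 of the 18 had a peak within 50 kb, against 27% of the chromosome's genes and 39.7% of all genes. Neighbouring genes are not independent, and the list was not tested.

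The other lists are given beside the share of all chromosome 8 genes that were touched, which was 8.48% for replicated peaks and 15% and 19% for the own peaks of replicates 1 and 2. Their members are few and often neighbours, and no difference was tested. Of 19 carboxylesterase genes 6 were touched (Ces2a, Ces2b, Ces2c, Ces3a, Ces3b and Ces4a), 8 in replicate 1 and 9 in replicate 2. No peak of any of these lists lay within 50 kb of the start for 9 of the 19. That is near the 44.6% of all chromosome 8 genes that had none. Of 7 coagulation genes 3 were touched, namely F7, F10 and Plat, with 5 in replicate 1 and 4 in replicate 2. F10, which encodes factor X, held 5 intron peaks and 2430 covered bases, with 2530 in replicate 1 and 2310 in replicate 2. Of 8 cadherin genes 3 were touched: Cdh1, the epithelial cadherin, with 2141 covered bases (2273 in replicate 1 and 3570 in replicate 2), Cdh3 and Cdh15. Of 25 signalling genes 4 were touched, Fgfr1, Ccl22, Cx3cl1 and Il34. Ccl22, a chemokine that draws T cells, had 1191 covered bases in its body (1150 and 1466), and Il34, a ligand of the macrophage growth factor receptor, had 940 (1407 and 1329).

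The remaining lists had at most 1 touched member each. This was Cotl1 among 15 leukocyte genes, with its peak outside the gene body, Cacna1a, a neuronal calcium channel, among 22 neuronal genes, and Defb37 among 46 defensin genes, which are tightly clustered. The own lists touched 4 neuronal genes in replicate 1 and 7 in replicate 2, and 3 and 2 leukocyte genes. Cacna1a had 1893 covered bases, with 3063 in replicate 1 and 7419 in replicate 2, the widest gap between replicates among the genes named here. None of the 11 housekeeping genes and none of the 4 metallothionein genes was touched in the replicated list. Replicate 2's own list touched 1 metallothionein gene. Genes of both lists still lay near replicated peaks. Of the housekeeping genes 7 of 11 had one within 50 kb of the start, and of the metallothionein genes 4 of 4. The share over all genes of the chromosome was 27%, and these few genes were not tested.

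By annotation of protein-coding genes, 32 of the 661 peaks lay within 1 kb of a coding transcript start (4.84%), 31 in other exons (4.69%) and 237 in introns (35.9%). The other 361 lay outside protein-coding genes (54.6%), some of them in non-coding genes. Over all autosomes these shares were 3.73%, 4.71%, 34.4% and 57.2%. In all 44.5% of the peaks overlapped a protein-coding gene, against 41.8% on the other autosomes and 33.2% on chromosome 18. The median distance to the nearest outermost gene start was 17333 bp, and 77 peaks lay over 50 kb away. The most remote one (42355151 to 42355328) lay 786158 bp away and was only 178 bp wide, and its own peaks had a −log10 p of 3.76 in each replicate.

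In base composition the peaks were close to the average of the whole chromosome. They were 43.8% G or C, against 42.4% for chromosome 8 as a whole and 43.0% in peaks over all autosomes. The 11 bins of the 6 stretches, which held 68.7% of the peaks, had a higher median of 46.8% G or C. CG pairs numbered 0.913 per 100 bases in peaks and 0.903 on the whole chromosome, and 89 peaks held none. Only 7 peaks had a GC content of 50% or more together with an observed to expected CG ratio of 0.6 or more, a usual measure of CpG islands. They lay at Ccdc102a, Ndrg4 (2 peaks), Slc9a5, Lrrc36 and Zfhx3 (2 peaks). The reference marked 21.3% of the peak bases as repeats, against 32.3% of the chromosome and 19.6% of peak bases over all autosomes. Of the 661 peaks, 65 were repeats over at least 50% of their length and 135 held none, and the part of read mapping in repeats was not tested.

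Agreement with the replicates' own peaks was similar to that of other chromosomes. Of the 661 peaks 493 overlapped own peaks of both replicates by at least 1 bp (74.6%), against 72.4% of all replicated peaks. A further 59 overlapped replicate 1 only (8.93%), 105 replicate 2 only (15.9%) and 4 neither. In chromosomes 18 and 13 the share in both was 68.1% and 68.6%. The replicated list was made in part from the own lists, so this overlap is no separate support. The peaks in both were wider and stronger than the others, with a median width of 305 bp against 238.5 bp and a median −log10 q of 0.98 against 0.533. Of the 76 peaks with a −log10 q of 2 or more, 73 overlapped both. When the peaks were sorted by −log10 p into 4 bins of nearly equal size, 57.8% of the weakest bin overlapped both, then 72.7%, 76.4% and 91.5% of the strongest. Median width rose along the same bins, from 239.5 bp to 260, 295 and 377 bp. The −log10 p used for sorting also draws on both replicates. The parts of width and of this shared source in the rise were not tested.

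Peak strength was compared between the replicates too. Over the 493 peaks in both, which were selected for overlapping own peaks of each, Pearson's r between the own −log10 p values was 0.214 and Spearman's rho was 0.187. These are across peaks that share the control, and no test was attached. Replicate 1 had the higher value at 238 of the 493. The medians were equal, at 4.62 in each replicate. Own peaks covered a median of 75.1% of such a peak in replicate 1 and 80.7% in replicate 2, and 362 of the 661 peaks were covered over at least 50% by each. The equal medians do not extend to all own peaks of chromosome 8, where the median −log10 p was 4.62 in replicate 1 and 3.76 in replicate 2. There, 394 of 1421 peaks of replicate 1 (27.7%) and 208 of 2184 of replicate 2 (9.52%) had a −log10 q of 2 or more.

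**Figure D5:**
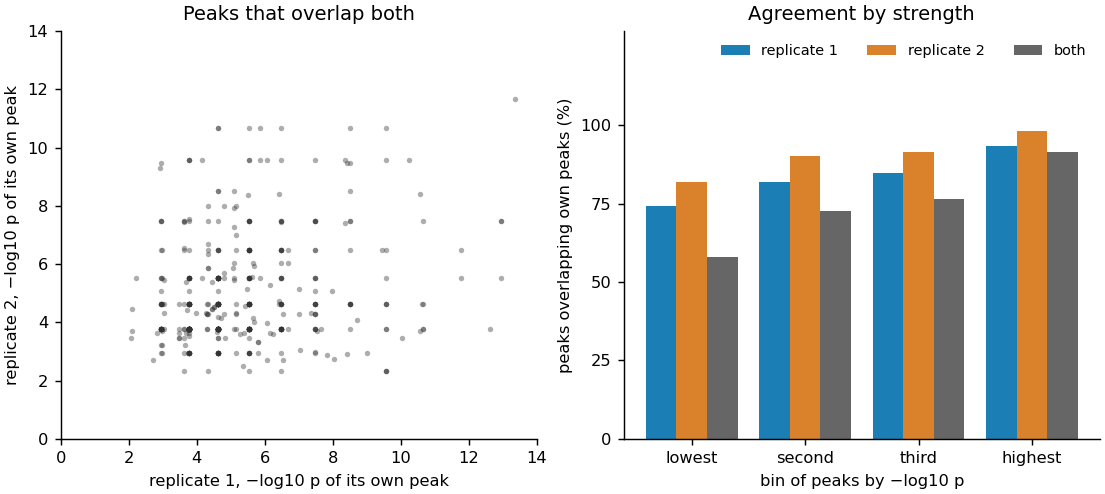
Left, −log10 p of the own peaks of replicates 1 and 2 at the 493 chromosome 8 peaks that overlap both. Right, percent of peaks that overlap own peaks of replicate 1, replicate 2 or both, by bin of −log10 p, where overlap with both goes from 57.8% in the lowest to 91.5% in the highest bin. Median peak width rises along the same bins.

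Seen from the own lists, many peaks had no partner. Replicate 1 had 1421 peaks on chromosome 8 with a median width of 176 bp, of which 39.4% overlapped a peak of replicate 2, against 44.9% over all autosomes. Replicate 2 had 2184 peaks, also with a median of 176 bp, of which 26.0% overlapped one of replicate 1, against 29.8%. In replicate 1 the median width was 211 bp with a partner and 163 bp without, and in replicate 2 it was 226 bp and 166 bp. In the pooled list 674 of 1335 chromosome 8 peaks were not kept as replicated, with a median width of 171 bp and a −log10 p of at most 5.29, and 0 of them reached a −log10 q of 2. Of these 674, 30 overlapped own peaks of both replicates. The pooled peaks were kept at 49.5%, against 54.9% over all autosomes.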

How the data were processed

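Peaks were called on mm10 alignments with 1 shared control, per the deposited text descriptions. Not given in the sources used here are the aligner, the peak caller and the rule for replicated peaks. The authors deposited for each peak a signal value, a score of unstated definition that was used only to break ties, the −log10 of its p-value, and the −log10 of its q-value. Of the 38300 replicated peaks, the 38298 on chromosomes 1 to 19 or the sex chromosomes entered. Every mm10 peak fitted within the GRCm38 chromosome lengths. Genes are from GENCODE mouse release 21, with the longest gene kept per symbol, and sequence and repeat marking (lower case) from the NCBI copy of GRCm38.

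Covered bases are unions of peaks, computed with Python 3.11.15, numpy 2.4.6 and pandas 2.3.3. Overlap means at least 1 bp. The interval code was tested on simulated data. No test was run: there is 1 group of 2 samples, and peaks are not replicates. Shares over all peaks or genes serve as background.

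Named genes are those marked at the start, those at the 10 longest clusters and the 10 peaks with the highest −log10 q, and touched members of 11 gene lists, with all red cell and developmental genes. A red cell gene covered by this rule is not reported here. Members and lists were chosen with earlier results of these data known. Alternatives were a −log10 q of 2, the upper 50% by −log10 p, the pooled and own lists, and other overlaps, joining distances and windows. Leaving out genes of 2 Mb or longer was chosen after seeing the data.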

Additional observations from a re-analysis of the deposited data

How the results depend on the processing

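The counts on chromosome 8 depended on the list and on peak strength. With −log10 q of 2 or more there were 76 peaks covering 0.0319%, with a median width of 419 bp, 11 clusters, 2 marked genes, 63.2% of peaks in genes and 96.1% in both replicates. In the upper 50% by −log10 p there were 330 peaks with a median width of 330.5 bp, 54 clusters, 47.6% in genes, 83.9% in both replicates and 22.7% of bases in repeats. The pooled list gave 1335 peaks covering 0.273%, with a median width of 209 bp, 247 clusters, 25 marked genes and 42.4% in genes. With 1 replicate left out, the own list of the other gave 1421 to 2184 peaks, 0.239% to 0.361% covered, 243 to 375 clusters, 27 to 32 marked genes and 42.3% to 42.7% in genes, and a median width of 176 bp either way. Repeats then made up 20.7% to 22.2% of bases, and 83.5% to 90.5% of replicated peaks overlapped the single replicate. Overlap with both fell to 54.8% when 50% of the peak had to be covered by each. Marked genes numbered 31 with 2.5 kb on each side and 3 with 500 bp of the window covered, and 53.0% of peaks lay in a gene or the 5 kb before it. Leaving out genes of 2 Mb or longer gave 44.2% in genes. Joining within 1 kb or 10 kb gave 135 or 104 clusters. Fewer or more peaks follow from how each alternative is built, and other causes were not tested. No paired analysis was possible because there is only 1 group. Depth is unknown, so no interval from reads could be given.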
